A study of Homo sapiens with 8 samples.

Results

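The homeobox genes described here are 55 named genes of the LIM, DLX, sine oculis (SIX2 to SIX6), POU, OTX, PITX, MEIS, PBX, PHOX, GBX, EN, TLX, HMX, CUT, CDX and MSX families, chosen by name from outside the HOX clusters and the main islet factors, out of 38592 genes in the deposited tables. All 55 were found by symbol, and 49 passed the filter on low counts. The other 6 (LHX5, DLX1, SIX6, POU3F3, POU4F3 and PITX3) had between 7 and 72 counts in total over 21 libraries and were not tested.

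The samples were islet-like cells made in culture from the human embryonic stem cell line H1. They were either wild type (WT) or had 1 of 3 homeodomain factors of the islet knocked out (KO), namely ISL1, PAX6 and PDX1. On day 11 of differentiation they were transduced with an ISL1 vector that also encodes blue fluorescent protein (labelled ISL1 OE) or with only the fluorescent protein (labelled BFP). Cells were harvested on day 18. The 8 groups held 3 libraries each, except both WT groups and PDX1 KO ISL1 OE, which held 2 each. Every group therefore carried a vector, and none was left without one. The labels name neither the clones behind each genotype nor the promoter of the vector. Each library was bulk RNA from a mixed culture, so a change in the number of cells of a type and a change in RNA per cell cannot be told apart.

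Homeobox genes encode transcription factors that bind DNA through a homeodomain, and many set position along the body or the fate of neurons, limb, gut and endocrine cells. LIM, POU and sine oculis proteins add a further domain that binds partners or DNA, and MEIS and PBX proteins act mainly as cofactors that bind DNA together with HOX and other homeodomain proteins. Pancreatic endocrine cells and neurons share many of these factors during development.

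Libraries held 40959445 to 66818593 counts, and 24721 to 27304 genes were detected in each. Within a group the lowest correlation between libraries was 0.991 or higher, except 0.926 in PAX6 KO ISL1 OE and 0.899 in PDX1 KO ISL1 OE. PAX6 KO ISL1 OE replicate 3 and PDX1 KO ISL1 OE replicate 4 stood apart from their groups. In the second of these, INS (insulin) was at 44900 CPM, against 324 CPM in the other library of its group and 173 to 371 CPM in PDX1 KO BFP, so its group is given throughout as a label. CPM are counts scaled to the total of the library after adjusting that total by edgeR's TMM factor. Results that rest on these libraries are given with and without them. RNA of the edited genes was still read in their knockouts: ISL1 was at 64.7 to 72 CPM in ISL1 KO BFP against 285 and 484 CPM in WT BFP, and PAX6 and PDX1 RNA in their own knockouts overlapped WT BFP. ISL1 RNA was 313 and 326 CPM in WT ISL1 OE, within the range of WT BFP, and the groups with and without the ISL1 vector overlapped in all 4 genotypes. The label ISL1 OE is therefore used as a label, since these gene counts do not show a raised ISL1 level.

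The members spanned a wide range of abundance. On the length-scaled TPM scale, averaged over all libraries, PITX1, a factor of hindlimb and pituitary, was the highest at 269 TPM. CDX2, which sets intestinal identity, followed at 63 TPM, then MEIS1 at 44.5 TPM and CUX1 at 41.2 TPM. The highest member of each other family was LMX1B (15.2 TPM) for LIM, DLX5 (9.41 TPM) for DLX, SIX2 (9.3 TPM) for the sine oculis family, POU2F1 (17.1 TPM) for POU and PHOX2A (10.5 TPM) for the group of PHOX, GBX, EN, TLX and HMX genes. At the other end, LHX3 passed the filter with a mean of 0.0707 CPM, and PITX3 did not with 0.0608 CPM. Over all 8 groups, 25 of the 49 tested members differed somewhere by edgeR's quasi-likelihood test at an adjusted p under 0.05, against 25.8% of all 22184 genes tested.

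**Figure D1:**
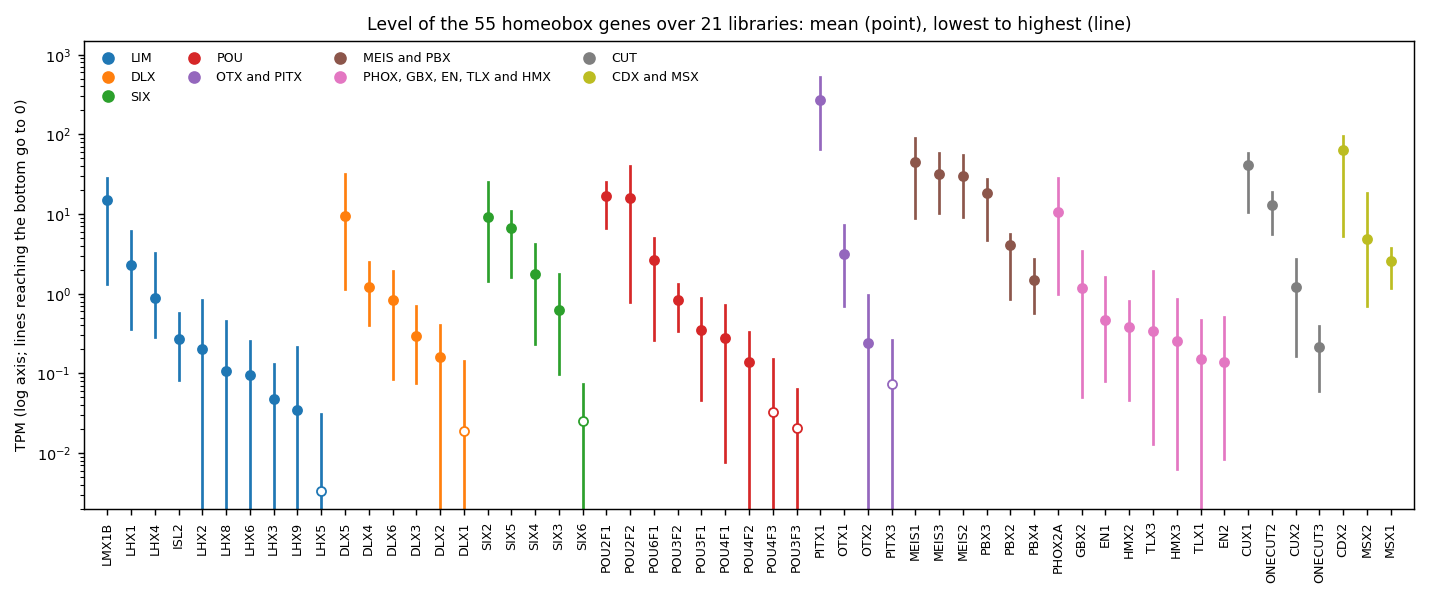
Level of each of the 55 homeobox genes in TPM on a log axis, grouped by family; points are means over 21 libraries, lines run from the lowest to the highest library, and open points mark the 6 genes not tested. PITX1 stood highest at 269 TPM, and the lines of the low members reach 0.

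Promoter stretches are shown because their genes carry the main patterns below. DLX6 and POU4F1 were higher in all 3 knockouts. Without either WT BFP library, however, the DLX6 call held only in PDX1 KO and the POU4F1 call only in ISL1 KO. MSX2 was lower in 2 of them, though its ISL1 KO call was lost in each fit without 1 library. MEIS2 was the member whose libraries with the ISL1 vector lay above those without it in each genotype. That difference passed the test in ISL1 KO in the fit to all libraries, a call also lost in each fit without 1 library. The stretches come from RefSeq (GRCh38.p14), 5′ to 3′ on the strand of the gene, and are the longest run of the 250 bases before the start site that lies outside annotated exons. They lie at chr7:97005303-97005547 (plus strand, DLX6), chr13:78603561-78603802 (minus strand, POU4F1), chr5:174724332-174724532 (plus strand, MSX2) and chr15:37098697-37098900 (minus strand, MEIS2). The MEIS2 stretch lies before 1 of its start sites and inside the gene body of longer annotated transcripts. Capitals mark TAAT or its reverse complement ATTA, the core that many homeodomains bind, which overlaps the palindrome TAATTA, and TGACAG or CTGTCA, a motif bound by MEIS proteins.
DLX6: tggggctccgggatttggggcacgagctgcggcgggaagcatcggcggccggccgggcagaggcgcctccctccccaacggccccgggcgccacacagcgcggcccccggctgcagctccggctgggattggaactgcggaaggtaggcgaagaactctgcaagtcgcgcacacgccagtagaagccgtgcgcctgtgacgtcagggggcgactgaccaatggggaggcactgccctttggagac
POU4F1: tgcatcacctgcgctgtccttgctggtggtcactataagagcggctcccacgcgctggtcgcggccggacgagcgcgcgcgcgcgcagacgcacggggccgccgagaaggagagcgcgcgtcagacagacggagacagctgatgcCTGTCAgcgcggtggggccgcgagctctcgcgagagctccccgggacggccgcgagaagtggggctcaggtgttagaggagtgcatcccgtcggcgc
MSX2: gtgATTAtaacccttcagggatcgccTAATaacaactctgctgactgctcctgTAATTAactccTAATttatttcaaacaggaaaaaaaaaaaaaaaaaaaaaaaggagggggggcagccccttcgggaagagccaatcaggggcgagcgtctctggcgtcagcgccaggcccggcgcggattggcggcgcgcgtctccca
MEIS2: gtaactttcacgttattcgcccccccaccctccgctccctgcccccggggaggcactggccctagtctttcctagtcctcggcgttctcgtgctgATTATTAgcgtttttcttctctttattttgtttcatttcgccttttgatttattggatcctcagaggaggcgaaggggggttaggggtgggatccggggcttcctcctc
The MSX2 stretch holds 5 matches to TAAT on either strand, with 1 TAATTA palindrome among them, and the DLX6 stretch holds no match to any of the 3 motifs. Of all 35116 RefSeq promoter windows of 300 bases, 50.2% hold TAAT on either strand, 4.84% hold TAATTA and 15.8% hold TGACAG. Among the 60 windows of the 46 members that the table lists, the shares were 41.7%, 3.33% and 11.7%. These matches describe the sequence only.

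The first comparison asks which homeobox genes differ when 1 islet factor is missing, with the control vector in all cells. Of the 49 tested, 10 members differed between ISL1 KO BFP and WT BFP (against 6.53% of all genes), 5 upward (against 2.05%) and 5 downward (against 4.48%). In PAX6 KO BFP 5 members differed (against 6.65% of all genes), all of them upward (against 2.41%). In PDX1 KO BFP 11 differed (against 11.4%), with 6 upward (against 4.56%) and 5 downward (against 6.84%). The median log2 fold change of the members was 0.18, 0.03 and -0.13 in the 3 knockouts, beside 0.03, 0.00 and 0.02 over all genes. In all, 16 members differed in at least 1 knockout (against 15.9% of all genes), and DLX5, DLX6 and POU4F1 were higher in all 3 (against 0.64%), while none was lower in all 3 (against 1.79%). With the 2 libraries that stood apart left out, 51 members were tested and 29 differed in at least 1 knockout (against 48.4% of all genes). In that fit 7 were higher in all 3 (against 6.28%), with LMX1B, POU2F2, POU6F1 and HMX3 added, and LHX4 and MSX2 were lower in all 3 (against 7.53%). The 3 comparisons share the same 2 WT BFP libraries, so a chance deviation there enters each of them. With either WT BFP library left out, DLX5 was called in none of the 3 knockouts. DLX6 was then called only in PDX1 KO and POU4F1 only in ISL1 KO.

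**Figure D2:**
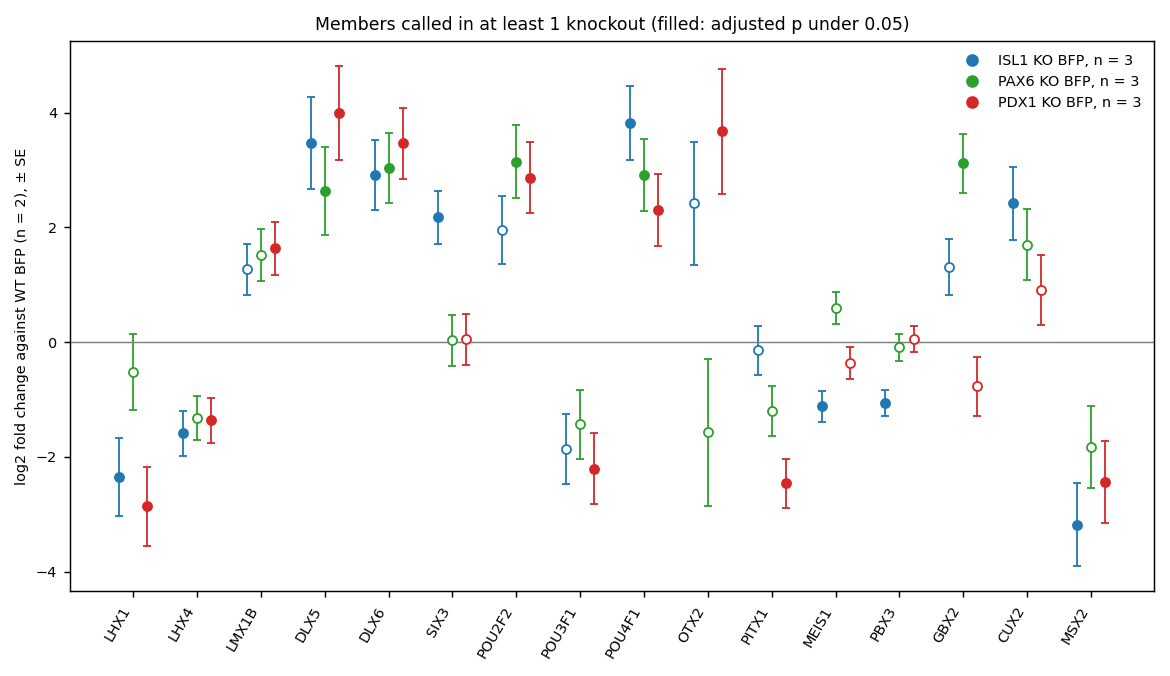
Log2 fold change of each knockout against WT BFP, with its SE, for the 16 members called in at least 1 knockout; filled points have an adjusted p under 0.05. DLX5, DLX6 and POU4F1 are filled and above 0 in all 3 knockouts, and in this fit to all libraries no member is filled on opposite sides of 0.

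Among the LIM genes, LHX1, a factor of kidney, head and motor neuron development, was at 5.26 and 4.83 CPM in WT BFP, 1.25, 0.722 and 1 CPM in ISL1 KO BFP, and 0.807, 0.346 and 0.94 CPM in PDX1 KO BFP. It was at 2.97, 2.51 and 5.09 CPM in PAX6 KO BFP. The ISL1 KO and PDX1 KO libraries all lay below WT, while PAX6 KO overlapped it. The log2 fold changes were -2.35 ± 0.68 (SE, adjusted p = 0.0467) in ISL1 KO, -2.86 ± 0.69 (adjusted p = 0.0127) in PDX1 KO and -0.52 ± 0.66 (adjusted p = 0.751) in PAX6 KO. With a replicate block nested in the 2 genotypes that hold 3 numbered pairs, the ISL1 KO value missed the threshold (adjusted p = 0.0539).

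LHX4, known from pituitary and motor neuron development, was at 6.03 and 4.15 CPM in WT BFP, and all 9 BFP libraries of the knockouts lay lower, between 1.28 and 2.63 CPM. It fell by 1.59 ± 0.39 on the log2 scale in ISL1 KO (adjusted p = 0.0212) and by 1.36 ± 0.39 in PDX1 KO (adjusted p = 0.0307), and the PAX6 KO value was -1.32 ± 0.39 (adjusted p = 0.0501). ACBD6, which overlaps LHX4 on the other strand, was not called in ISL1 KO (-0.16 ± 0.36) or PDX1 KO (0.31 ± 0.37). Both LHX4 calls were lost when scaled by library size alone, and each was kept in only 1 of 5 fits without 1 library. LMX1B, a factor of serotonin neurons, limb and kidney, went the other way, with 25.5 and 34.2 CPM in WT BFP. It reached 70.5, 66.7 and 78.6 CPM in ISL1 KO BFP, 94.2, 67.3 and 96.4 CPM in PAX6 KO BFP, and 103, 69.5 and 106 CPM in PDX1 KO BFP. All 9 knockout libraries exceeded both WT libraries, and the rise of 1.64 ± 0.46 in PDX1 KO passed the test (adjusted p = 0.0276), though not with the nested replicate block (adjusted p = 0.0555). This LMX1B call was kept in only 1 of 5 fits without 1 library. The log2 values of 1.27 ± 0.45 in ISL1 KO and 1.52 ± 0.45 in PAX6 KO had adjusted p = 0.106 and 0.0525. The other tested LIM genes, ISL2, LHX2, LHX3, LHX6, LHX8 and LHX9, were not called in any comparison of 2 groups, and each averaged 0.273 TPM or less.

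The DLX genes DLX5 and DLX6 are neighbours on chromosome 7 and act together in jaw, limb and forebrain interneurons. DLX5 was at 1.25 and 1.04 CPM in WT BFP and at 11.8, 6.31 and 20.2 CPM in ISL1 KO BFP. In PAX6 KO BFP it was at 8.5, 3.19 and 9.81 CPM, and in PDX1 KO BFP at 10.7, 25.3 and 19.2 CPM. Every knockout library was above both WT libraries, by 3.47 ± 0.80 on the log2 scale in ISL1 KO (adjusted p = 0.0153), 2.64 ± 0.77 in PAX6 KO (adjusted p = 0.0496) and 4.0 ± 0.82 in PDX1 KO (adjusted p = 0.00469). The PAX6 KO value lies at the threshold, and it passed in 7 of 9 other settings but in only 1 of 5 fits without 1 library, being lost without either WT BFP library and without PAX6 KO BFP replicate 1 or 3.

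DLX6 was at 0.218 and 0.165 CPM in WT BFP, and at 1.31, 0.851 and 2.24 CPM in ISL1 KO BFP. It was at 1.99, 0.954 and 1.86 CPM in PAX6 KO BFP and at 1.71, 2.44 and 2.36 CPM in PDX1 KO BFP. As for DLX5, the knockouts did not overlap WT, with log2 fold changes of 2.91 ± 0.61 (adjusted p = 0.008), 3.03 ± 0.61 (adjusted p = 0.00755) and 3.47 ± 0.62 (adjusted p = 0.00188). The antisense gene DLX6-AS1, which overlaps DLX6 on the other strand, was higher in PDX1 KO too (log2 fold change 2.22 ± 0.67, adjusted p = 0.0407). It was not called in ISL1 KO (0.85 ± 0.65, adjusted p = 0.511) or PAX6 KO (1.78 ± 0.66, adjusted p = 0.122). These libraries do not mark strand, so reads of the overlap cannot be told apart. DLX2, DLX3 and DLX4 were not called in any comparison of 2 groups.

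SIX3, a factor of forebrain and eye that is also found in adult beta cells, differed in ISL1 KO. It was at 0.298 and 0.714 CPM in WT BFP, 2.52, 2.55 and 1.75 CPM in ISL1 KO BFP, 0.538, 0.534 and 0.452 CPM in PAX6 KO BFP, and 0.33, 0.614 and 0.6 CPM in PDX1 KO BFP. The ISL1 KO libraries stood above all other BFP libraries. The rise against WT was 2.18 ± 0.46 (adjusted p = 0.00889), and SIX3 was also higher in ISL1 KO than in PAX6 KO (2.16 ± 0.39, adjusted p = 0.00453) and PDX1 KO (2.14 ± 0.39, adjusted p = 0.00382). SIX2, known from kidney progenitors and human beta cells, was at 4.94 and 10.1 CPM in WT BFP and 22.4, 24.3 and 26.5 CPM in PDX1 KO BFP. That difference of 1.70 ± 0.55 had an adjusted p of 0.0553. SIX4 and SIX5 were not called in any comparison of 2 groups with all libraries, while AC074212.1, which overlaps SIX5 on the other strand, was higher with the ISL1 vector in PDX1 KO (0.88 ± 0.25, adjusted p = 0.0258).

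Of the POU genes, POU4F1, a factor of sensory neurons also named BRN3A, was low in WT BFP at 0.159 and 0.0824 CPM. It was at 1.99, 1.59 and 1.75 CPM in ISL1 KO BFP, 1.06, 1.03 and 0.77 CPM in PAX6 KO BFP and 0.477, 0.519 and 0.86 CPM in PDX1 KO BFP. All knockout libraries were above WT, by 3.82 ± 0.64 (adjusted p = 0.00173), 2.92 ± 0.63 (adjusted p = 0.0112) and 2.30 ± 0.63 (adjusted p = 0.0247) on the log2 scale. The ISL1 KO libraries were the highest, and their difference from PDX1 KO was 1.52 ± 0.46 (adjusted p = 0.0634).

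POU2F2, an octamer-binding factor best known from B cells and also expressed in neurons, was at 1.91 and 4.2 CPM in WT BFP and 10.3, 9.76 and 15.5 CPM in ISL1 KO BFP. It reached 29.4, 19.1 and 32.2 CPM in PAX6 KO BFP and 19.6, 23.4 and 23.6 CPM in PDX1 KO BFP. No knockout library overlapped WT, and POU2F2 rose by 3.15 ± 0.63 in PAX6 KO (adjusted p = 0.00736) and 2.87 ± 0.62 in PDX1 KO (adjusted p = 0.00638). The ISL1 KO value of 1.96 ± 0.59 had an adjusted p of 0.0585. AC010247.2, which overlaps POU2F2 on the other strand, was also higher in PAX6 KO (2.65 ± 0.57, adjusted p = 0.0114) and PDX1 KO (2.70 ± 0.58, adjusted p = 0.00586).

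POU3F1, a factor of Schwann cells and skin, was at 1.17 and 1.21 CPM in WT BFP and 0.183, 0.488 and 0.08 CPM in PDX1 KO BFP, a fall of 2.21 ± 0.62 on the log2 scale (adjusted p = 0.0286). That call was kept in only 1 of 5 fits without 1 library. The ISL1 KO and PAX6 KO libraries also lay below WT, between 0.112 and 0.705 CPM, with values of -1.86 ± 0.61 (adjusted p = 0.0807) and -1.43 ± 0.60 (adjusted p = 0.184). POU2F1, which is expressed in most cell types, stayed between 21 and 41.8 CPM in all libraries, and neither it nor POU3F2 nor POU4F2 was called in any comparison of 2 groups.

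OTX2, needed for forebrain and eye, was near the limit of detection in WT BFP (0.0397 and 0.11 CPM) and PAX6 KO BFP (0, 0 and 0.067 CPM). It was at 1.1, 0.881 and 0.86 CPM in PDX1 KO BFP and 0.275, 0.353 and 0.545 CPM in ISL1 KO BFP. The PDX1 KO libraries were the highest, with a rise of 3.68 ± 1.09 against WT (adjusted p = 0.0365, and 0.0552 with the nested replicate block). PITX1 fell in PDX1 KO by 2.46 ± 0.43 (adjusted p = 0.00177), from 351 and 318 CPM in WT BFP to 63.3, 59.5 and 60 CPM. In ISL1 KO BFP it stayed at 348, 289 and 275 CPM, and in PAX6 KO BFP it reached at most 195 CPM, below both WT libraries, a difference of -1.20 ± 0.43 (adjusted p = 0.106). AC008406.3, which overlaps PITX1 on the other strand, also fell in PDX1 KO (-2.75 ± 0.59, adjusted p = 0.00635). C5orf66, which overlaps PITX1 too and has more counts, was not called there (-1.22 ± 0.43, adjusted p = 0.0756). By level alone, the order of the groups for PITX1 was WT and ISL1 KO, then PAX6 KO, then PDX1 KO. The middle place of PAX6 KO passed no test, as PITX1 was not called between PAX6 KO and WT, ISL1 KO or PDX1 KO. PITX1 was higher in ISL1 KO than in PDX1 KO (2.32 ± 0.41, adjusted p = 0.00283), and the neighbours WT and ISL1 KO did not differ beyond their spread (-0.14 ± 0.43, adjusted p = 0.914).

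The TALE cofactors MEIS1 and PBX3 were lower in ISL1 KO than in WT. MEIS1 was at 64.7 and 48.6 CPM in WT BFP and 24.5, 28.6 and 25 CPM in ISL1 KO BFP, a fall of 1.12 ± 0.27 (adjusted p = 0.0212). In PAX6 KO BFP it was at 84.3, 79.6 and 94.2 CPM, all above WT, and its difference from ISL1 KO was tested directly (ISL1 KO minus PAX6 KO -1.72 ± 0.26, adjusted p = 0.000854). In PDX1 KO BFP it was at 51.7, 38.2 and 42.1 CPM, between the levels of ISL1 KO and the higher WT library, and its difference from ISL1 KO did not pass the test (ISL1 KO minus PDX1 KO -0.76 ± 0.25, adjusted p = 0.0896). MEIS1-AS3, an antisense gene that overlaps MEIS1, was lower in ISL1 KO as well (-3.01 ± 0.86, adjusted p = 0.0451), at a mean of 0.138 CPM. MEIS1-AS2, which also overlaps MEIS1, was not called there (0.21 ± 0.56, adjusted p = 0.896). PBX3 was at 25.3 and 29.4 CPM in WT BFP, and at 13, 13.9 and 12.4 CPM in ISL1 KO BFP, below the 21.1 to 31.7 CPM of all other BFP libraries. It fell by 1.06 ± 0.23 against WT (adjusted p = 0.00959), by 0.97 ± 0.21 against PAX6 KO (adjusted p = 0.0145) and by 1.12 ± 0.21 against PDX1 KO (adjusted p = 0.00422). PBX2 was not called in any comparison of 2 groups.

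GBX2, a factor of the boundary between midbrain and hindbrain, was at 0.298 and 0.302 CPM in WT BFP and 3.54, 1.91 and 2.41 CPM in PAX6 KO BFP. In ISL1 KO BFP it was at 0.938, 0.562 and 0.746 CPM, and in PDX1 KO BFP at 0.238, 0.22 and 0.06 CPM. The 3 knockouts did not overlap each other, with PAX6 KO highest and PDX1 KO lowest. GBX2 rose by 3.12 ± 0.51 in PAX6 KO against WT (adjusted p = 0.00188), and PAX6 KO exceeded PDX1 KO by 3.89 ± 0.45 (adjusted p = 0.000116) and ISL1 KO by 1.80 on the log2 scale (ISL1 KO minus PAX6 KO -1.80 ± 0.39, adjusted p = 0.0164). CUX2, a factor of upper-layer cortical neurons, rose in ISL1 KO by 2.42 ± 0.64 (adjusted p = 0.0316), from 1.37 and 0.659 CPM to 5.47, 5.26 and 5.74 CPM.

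MSX2, a target of BMP signals in limb and skull, was at 16.8 and 15 CPM in WT BFP. It was at 2.02, 1.72 and 1.51 CPM in ISL1 KO BFP, 1.52, 7.18 and 4.7 CPM in PAX6 KO BFP, and 4.6, 2.16 and 2.04 CPM in PDX1 KO BFP. Every knockout library lay below WT, and the fall passed the test in ISL1 KO (-3.18 ± 0.73, adjusted p = 0.0148) and PDX1 KO (-2.44 ± 0.72, adjusted p = 0.0358) but not in PAX6 KO (-1.83 ± 0.71, adjusted p = 0.139). The ISL1 KO call was lost whichever library of the compared groups was left out. The PDX1 KO call was lost without either WT BFP library and without PDX1 KO BFP replicate 2 or 3. CDX2 was not called with all libraries, with 106 and 114 CPM in WT BFP and 57.5 to 137 CPM in the knockouts. Without the 2 libraries that stood apart, CDX2 was among the members called in at least 1 knockout.

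**Figure D3:**
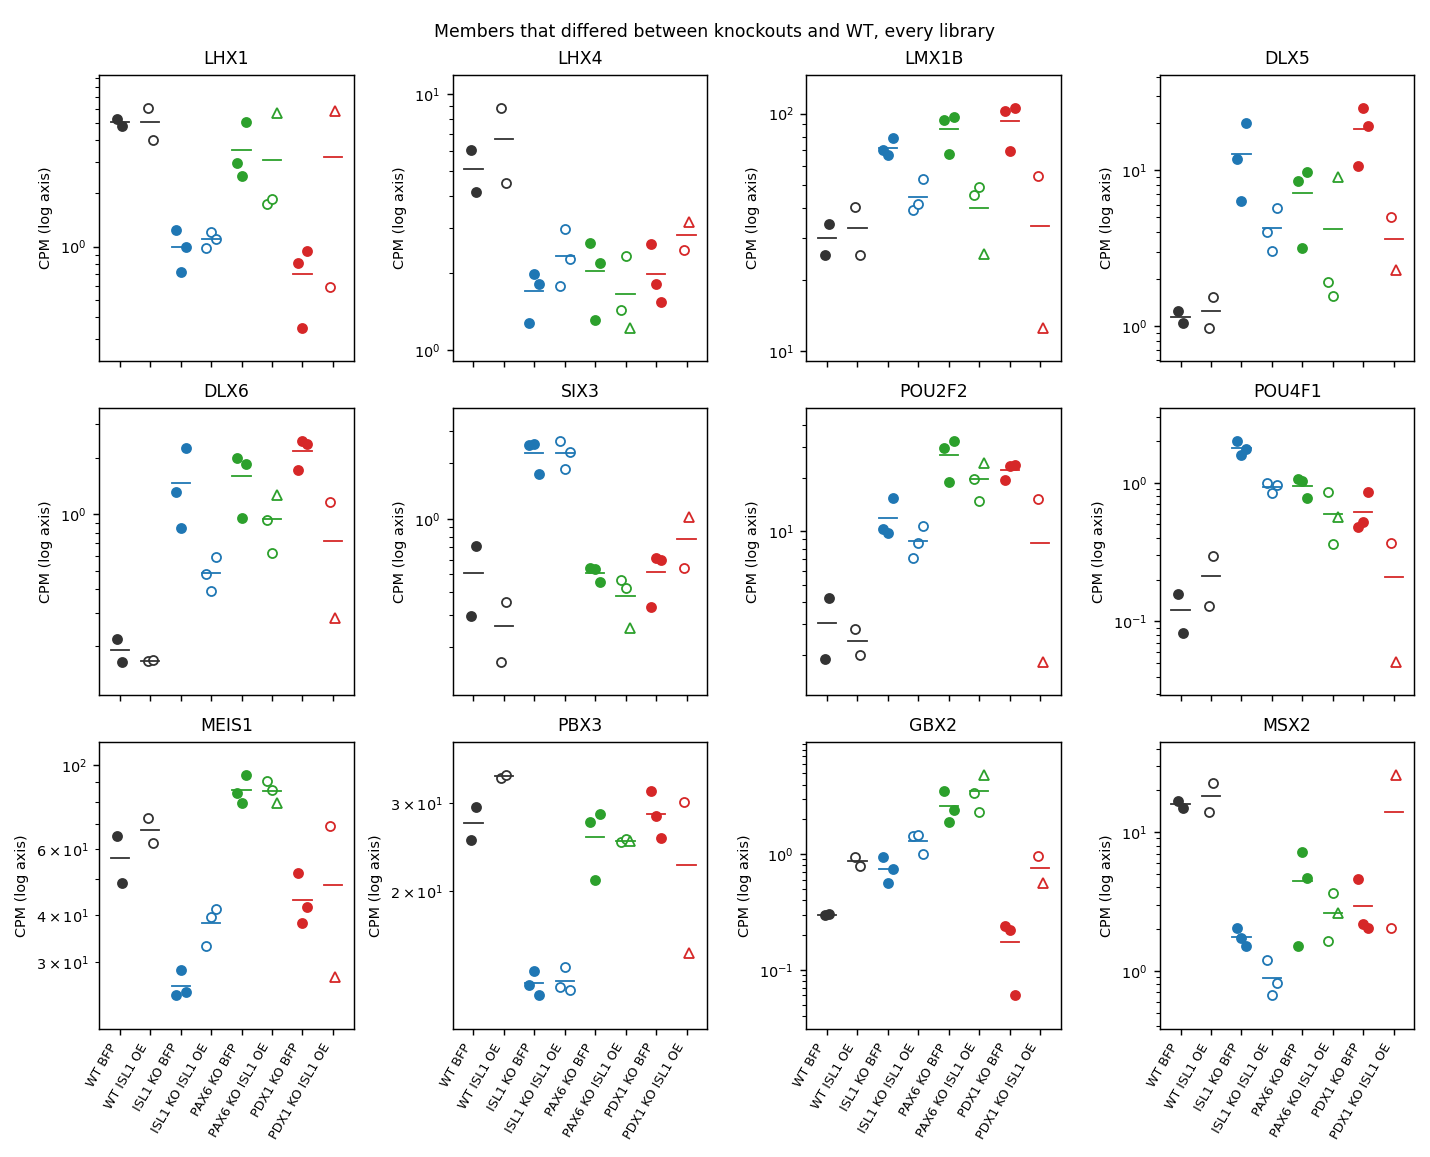
CPM on a log axis for 12 members in every library; filled symbols are BFP, open symbols ISL1 OE, bars are group means, and triangles are the 2 libraries that stood apart. DLX5, DLX6, POU2F2 and POU4F1 are low in both WT groups, SIX3 is raised in ISL1 KO, and among the BFP libraries MSX2 and LHX4 are highest in WT.

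Further comparisons set the knockouts against each other. ISL1 KO differed from PAX6 KO in 6 members (against 2.78% of all genes), 2 higher (against 0.987%) and 4 lower (against 1.79%). It differed from PDX1 KO in 6 (against 5.71%), 4 higher (against 3.32%) and 2 lower (against 2.39%). PAX6 KO differed from PDX1 KO in 3 (against 3.62%), 2 higher (against 1.7%) and 1 lower (against 1.91%). Beside the members above, MEIS3 was lower in ISL1 KO than in PAX6 KO (-1.26 ± 0.25, adjusted p = 0.00884), PBX4 lower in ISL1 KO than in PDX1 KO (-1.30 ± 0.36, adjusted p = 0.0399) and PHOX2A, a factor of noradrenaline neurons, higher in ISL1 KO than in PDX1 KO (2.49 ± 0.58, adjusted p = 0.0171). INPPL1, which overlaps PHOX2A on the other strand, was not called between ISL1 KO and PDX1 KO (0.22 ± 0.52, adjusted p = 0.896). OTX2 was higher in ISL1 KO than in PAX6 KO (3.99 ± 1.01, adjusted p = 0.0425) and lower in PAX6 KO than in PDX1 KO (-5.26 ± 1.02, adjusted p = 0.00627). MEIS1 was higher in PAX6 KO than in PDX1 KO (0.97 ± 0.25, adjusted p = 0.0397). With the nested replicate block, the OTX2 difference between ISL1 KO and PAX6 KO had adjusted p = 0.0786, and the MEIS1 difference between PAX6 KO and PDX1 KO did not pass the test either. That MEIS1 call and the PBX4 call were each lost whichever library of the compared groups was left out. Between ISL1 KO and PAX6 KO 3 members were left without ISL1 KO BFP replicate 1, 2 or 3 (against 1.49%, 1.57% and 1.5% of all genes) and without PAX6 KO BFP replicate 1 (against 1.45%).

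The knockout calls rest on few WT libraries. Without WT BFP replicate 1 the calls in the ISL1, PAX6 and PDX1 knockouts numbered 2, 1 and 2 (against 1.93%, 1.19% and 3.31% of all genes), and without WT BFP replicate 3 they were 3, 2 and 3 (against 2.03%, 1.24% and 4.29%). Leaving out ISL1 KO BFP replicate 1 or 3 left 5 and 4 calls in ISL1 KO (against 3.27% and 2.72%), and leaving out PDX1 KO BFP replicate 2 or 3 left 7 and 5 in PDX1 KO (against 6.63% and 6.36%). Of the 21 libraries, 5 were read on a separate set of lanes, at most 1 in each group, and with that set as a term LHX1 in ISL1 KO and DLX5 in PAX6 KO missed the threshold of 0.05. POU4F1 in ISL1 KO, GBX2 in PAX6 KO, and DLX6 and PITX1 in PDX1 KO were called whichever single library was left out. In contrast, the calls of MSX2, CUX2 and LHX1 in ISL1 KO and of OTX2 in PDX1 KO were lost whichever library of the compared groups was left out. Without the 2 libraries that stood apart, which belong to neither side of these comparisons but enter the shared spread, 20, 17 and 19 members were called, beside 28.5%, 28.8% and 33.3% of all genes.

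Markers of other cell types moved with the knockouts as well. Of 10 neuron markers, ISL1 KO BFP had 3 above and 1 (NEFL) below WT BFP, PAX6 KO BFP 3 above and PDX1 KO BFP 2 above. TUBB3 and ELAVL3 were above in each. In contrast, NEFL and NEFM lay below both WT BFP libraries in every knockout BFP library, though NEFM was not called. For the 3 knockouts the list medians were -0.01, 0.38 and 0.59 on the log2 scale. The summed level of the list nevertheless overlapped between groups, with 812 to 977 CPM in WT BFP, 756 to 969 CPM in ISL1 KO BFP, 855 to 1340 CPM in PAX6 KO BFP and 964 to 1130 CPM in PDX1 KO BFP. The 8 intestine markers summed to 287 and 354 CPM in WT BFP and to between 133 and 196 CPM in the knockouts, with 2, 3 and 4 of the 7 tested lower. The 6 endothelium markers summed to 18.7 and 28.1 CPM in WT BFP and to between 2 and 8.51 CPM in the knockouts, with 1, 2 and 3 lower. The 10 mesenchyme markers gave no call against WT, but the WT BFP libraries themselves were at 208 and 1150 CPM. The 8 neural crest and glia markers summed to 6.43 and 30.2 CPM in WT BFP and to between 4.56 and 28.7 CPM in the knockouts. GFAP in ISL1 KO was their only call against WT, and was higher. The 7 pluripotency markers summed to 62.4 and 63 CPM in WT BFP and to between 45.1 and 87.1 CPM in the knockouts. Their only call was DPPA4, lower in PAX6 KO. The 11 islet endocrine markers summed to 68000 and 84100 CPM in WT BFP, 29400 to 37500 CPM in ISL1 KO BFP, 18000 to 28500 CPM in PAX6 KO BFP and 60700 to 66800 CPM in PDX1 KO BFP. In WT BFP hormones carry much of that sum, with GCG (glucagon) at 33900 and 48200 CPM and INS at 13300 and 10400 CPM. GCG was at 72.4 to 86.5 CPM in ISL1 KO BFP, and was called lower in ISL1 KO and PAX6 KO, as was INS in PDX1 KO. Among the other islet markers, the calls against WT were upward. They were NKX2-2 in PAX6 KO (1.86 ± 0.44) and PDX1 KO (1.98 ± 0.45) and INSM1 in PDX1 KO (1.87 ± 0.45). CHGA was not called against WT. It was at 17500 and 21300 CPM in WT BFP, 21400 to 29900 CPM in ISL1 KO BFP and 13600 to 22900 CPM in PAX6 KO BFP. In PDX1 KO BFP it was at 38700 to 41900 CPM. In all 3 knockouts CHGA, not a hormone, was the largest part of the sum. SCG2, also not called against WT, was at 602 and 735 CPM in WT BFP. It was lower with ISL1 lost (405 to 447 CPM) or PAX6 lost (303 to 500 CPM), and higher with PDX1 lost (873 to 1120 CPM). The median log2 fold change of the list was -0.29, -0.31 and 0.52 for the 3 knockouts. The part of all these markers in the results on the homeobox genes was not tested.

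The next comparison asks what the ISL1 vector changed within each genotype. In WT no member passed the edgeR test (against 0.0361% of all genes, and 5 members had an unadjusted p under 0.05, while DESeq2 called 1). In ISL1 KO 1 was called (against 0.424% of all genes), and it was higher (against 0.243%), and in PAX6 KO none passed it (against 0.415%, with 3 members at an unadjusted p under 0.05 and 1 called by DESeq2). In PDX1 KO 10 were called (against 14.4% of all genes), 6 higher (against 9.09%) and 4 lower (against 5.34%). Cell type markers moved with the vector in ISL1 KO, where GCG (5.32 ± 0.97), NEFL (1.12 ± 0.24) and the pluripotency marker LIN28A (1.32 ± 0.26) were higher. GCG was at 72.4 to 86.5 CPM in ISL1 KO BFP and at 2060 to 5060 CPM in ISL1 KO ISL1 OE. No marker of these lists was called for the vector in WT or PAX6 KO. Markers also moved in the PDX1 KO vector comparison. Of 7 tested intestine markers 4 were higher (LGALS4 by 5.69 ± 0.93, ALPI by 4.09 ± 0.79, CDX1 by 3.77 ± 1.07 and CDH17 by 2.98 ± 0.77), and of 10 neuron markers DCX and RBFOX3 were lower. Of 11 islet markers INS was higher and NKX2-2, INSM1 and CHGB were lower. In the fit without the 2 libraries that stood apart, 2 intestine markers were higher, 5 neuron markers lower and 5 islet markers lower, and the part of these markers in the results on the members was not tested.

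MEIS2, a TALE cofactor active in limb, heart and brain development, was the member called in ISL1 KO. It was at 27.9 and 18.3 CPM in WT BFP and 48.5 and 61.3 CPM in WT ISL1 OE, and at 25.4, 25.7 and 28.4 CPM in ISL1 KO BFP and 51.2, 53 and 48.9 CPM in ISL1 KO ISL1 OE. In PAX6 KO it was at 31.9, 32.3 and 32.5 CPM with BFP and 58.6, 47.6 and 72.2 CPM with ISL1 OE, and in PDX1 KO at 29.8, 29.2 and 26.7 CPM with BFP and 45 and 29.9 CPM with ISL1 OE. Every ISL1 OE library lay above every BFP library of its genotype in all 4 genotypes, although in PDX1 KO the gap was only from 29.8 to 29.9 CPM. MEIS2 was the 1 member with that order, which 0.933% of all genes tested showed, and none had the reverse order, which 1.16% showed. The log2 fold changes were 1.25 ± 0.25 in WT (adjusted p = 0.114), 0.94 ± 0.20 in ISL1 KO (adjusted p = 0.048), 0.88 ± 0.20 in PAX6 KO (adjusted p = 0.0711) and 0.39 ± 0.22 in PDX1 KO (adjusted p = 0.231). The ISL1 KO call was lost in each of the 6 fits without 1 library and with the nested replicate block (adjusted p = 0.0939). Without the 2 libraries that stood apart, MEIS2 was called in all 4 genotypes, with 1.25 ± 0.17, 0.96 ± 0.13, 0.73 ± 0.15 and 0.68 ± 0.18. AC078909.1, which overlaps MEIS2 on the other strand at a mean of 1.25 CPM, moved the same way with all libraries. Its values were 1.18 ± 0.59, 0.98 ± 0.47, 1.82 ± 0.48 and 1.36 ± 0.52 in the same order, and none passed the test.

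**Figure D4:**
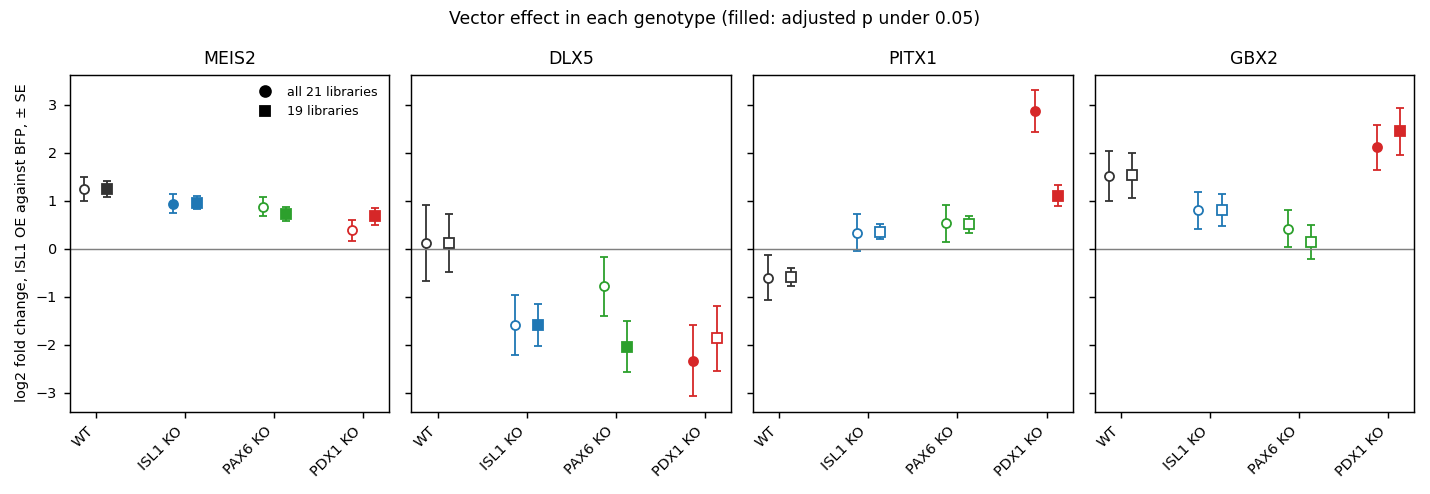
Log2 fold change of ISL1 OE against BFP in each genotype, with its SE, for MEIS2, DLX5, PITX1 and GBX2; circles use all 21 libraries, squares leave out the 2 that stood apart, and filled symbols have an adjusted p under 0.05. MEIS2 lies above 0 throughout, from 0.39 to 1.25, and the PITX1 value in PDX1 KO moves from 2.87 to 1.11.

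In PDX1 KO the group with the ISL1 vector held 2 unlike libraries, and several members followed the library labelled replicate 4 alone. LHX1 was at 0.589 CPM in replicate 2 and 5.86 CPM in replicate 4, MSX1 at 1.83 and 9.88 CPM, and MSX2 at 2.02 and 25.8 CPM. ONECUT3 was at 0.589 and 2.56 CPM, against 0.514, 0.425 and 0.26 CPM in PDX1 KO BFP. In replicate 2, LHX1 and MSX1 were inside the range of PDX1 KO BFP, MSX2 was just below its lowest library at 2.04 CPM and ONECUT3 just above its highest. With both libraries all 4 were called higher, by 2.20 ± 0.69 for LHX1 (adjusted p = 0.0416), 1.73 ± 0.54 for MSX1 (adjusted p = 0.0419), 2.24 ± 0.71 for MSX2 (adjusted p = 0.045) and 1.95 ± 0.63 for ONECUT3 (adjusted p = 0.0483). Without the 2 libraries that stood apart the values were -0.20 ± 0.50, 0.09 ± 0.51, -0.51 ± 0.65 and 0.58 ± 0.62, and none passed the test.

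PITX1 and GBX2 were called higher in PDX1 KO with and without that library. PITX1 was at 129 CPM in replicate 2 and 760 CPM in replicate 4, both above the 59.5 to 63.3 CPM of PDX1 KO BFP. Its change was 2.87 ± 0.44 (adjusted p = 0.000877), and 1.11 ± 0.21 (adjusted p = 0.00233) without the 2 libraries that stood apart. The overlapping AC008406.3 was higher as well (2.25 ± 0.59, adjusted p = 0.0202), while the overlapping C5orf66 was not called (1.25 ± 0.43, adjusted p = 0.0576). GBX2 was at 0.955 and 0.563 CPM, above the 0.06 to 0.238 CPM of PDX1 KO BFP, with a change of 2.11 ± 0.47 (adjusted p = 0.00851) and of 2.45 ± 0.49 (adjusted p = 0.00387) without them. AC019068.1, which overlaps GBX2 on the other strand, was higher too (1.85 ± 0.53, adjusted p = 0.0293). In PAX6 KO against WT, where GBX2 rose, AC019068.1 was not called (0.61 ± 0.54, adjusted p = 0.608).

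The 4 members called lower in PDX1 KO were LMX1B, DLX5, SIX2 and POU6F1. LMX1B was at 54.5 and 12.5 CPM with the ISL1 vector, against 103, 69.5 and 106 CPM with BFP (-1.47 ± 0.45, adjusted p = 0.0391). DLX5 was at 4.98 and 2.3 CPM against 10.7 to 25.3 CPM (-2.33 ± 0.74, adjusted p = 0.0449). For both genes the 2 groups did not overlap. SIX2 was at 10.3 and 4.55 CPM against 22.4 to 26.5 CPM (-1.71 ± 0.55, adjusted p = 0.0469), and POU6F1 at 1.91 and 0.512 CPM against 2.78 to 3.76 CPM (-1.35 ± 0.40, adjusted p = 0.0338). These groups did not overlap either. Without the 2 libraries that stood apart the 4 values were -0.74 ± 0.29, -1.86 ± 0.68, -1.22 ± 0.60 and -0.69 ± 0.30, in the same direction and past no threshold.

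DLX5 was lower with the ISL1 vector in the other knockouts by -1.59 ± 0.62 in ISL1 KO and -0.78 ± 0.61 in PAX6 KO, neither of which passed the test (adjusted p = 0.418 and 0.604). Its level in ISL1 KO ISL1 OE was 4.02, 3.01 and 5.7 CPM, below all 3 BFP libraries. In PAX6 KO ISL1 OE it was 1.91, 1.55 and 9.1 CPM, where replicate 3, which stood apart, was inside the BFP range. Without the 2 libraries the values were -1.58 ± 0.44 (adjusted p = 0.0429) and -2.04 ± 0.53 (adjusted p = 0.0327), and DLX6 fell by 1.57 ± 0.36 in ISL1 KO (adjusted p = 0.0164). In WT, where DLX5 was low in both groups, the value was 0.12 ± 0.79 (adjusted p = 1). The comparisons of the vector and of the knockouts use the same knockout BFP libraries, so a high chance value there moves both.

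TLX3, a factor of sensory neurons, was at 0.377 and 0.165 CPM in WT BFP and 1.54 and 1.87 CPM in WT ISL1 OE, a difference of 2.62 ± 0.95 that did not pass the test (adjusted p = 0.919). The mesenchyme markers stood at 1470 and 1720 CPM in the same WT ISL1 OE libraries, above the 101 to 1150 CPM of all other libraries, and their part in this value was not tested. CUX1, a broadly expressed CUT factor, was at 41.4 CPM in PAX6 KO ISL1 OE replicate 3 and 33.5 CPM in the library labelled as replicate 4 of PDX1 KO ISL1 OE, and between 70.5 and 98.2 CPM in the other libraries.

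**Figure D5:**
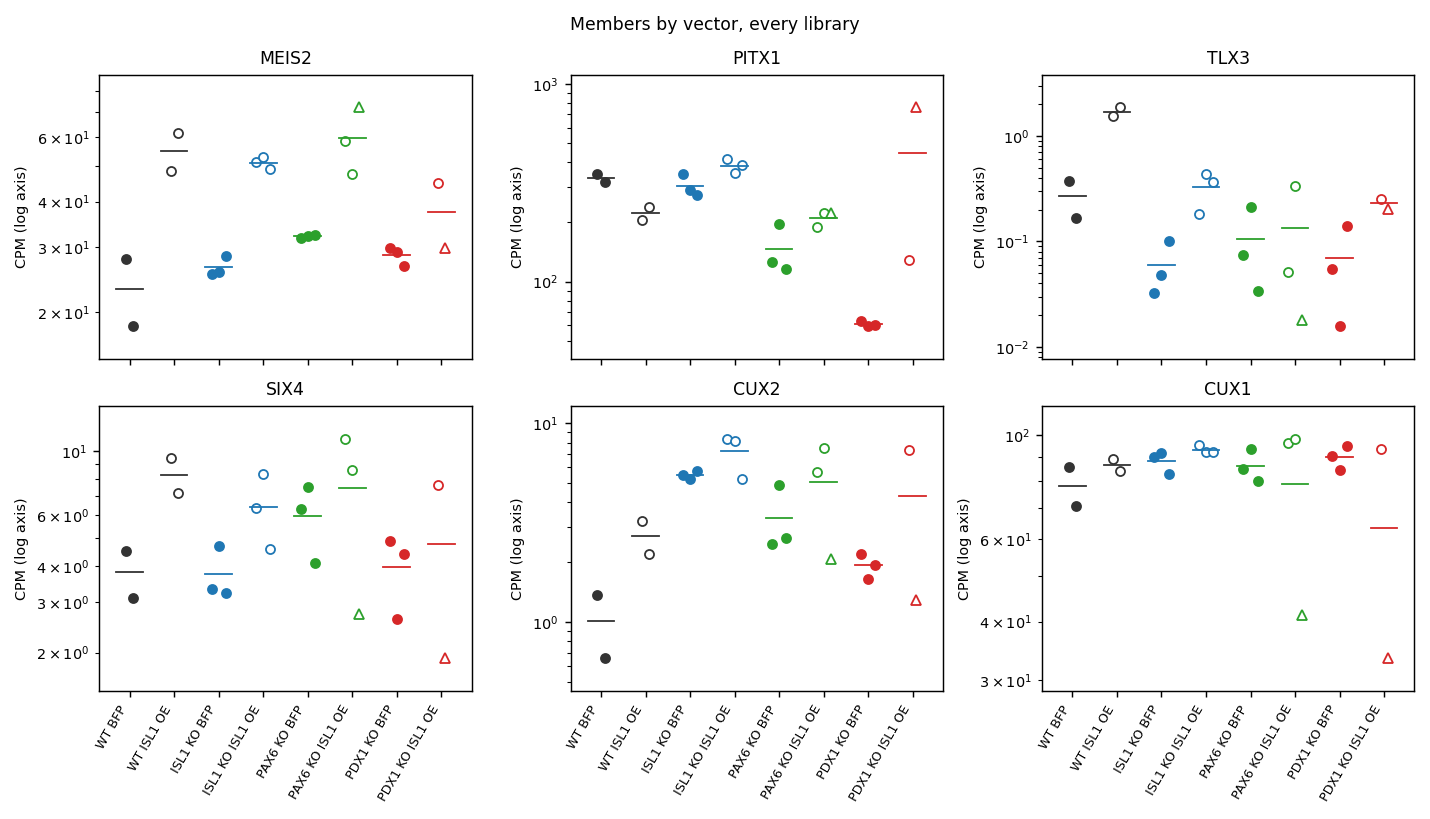
CPM on a log axis for 6 members in every library; filled symbols are BFP, open symbols ISL1 OE, bars are group means, and triangles are the 2 libraries that stood apart. MEIS2 is higher with the ISL1 vector in each genotype, and the triangles show CUX1 at 41.4 and 33.5 CPM, below all other libraries.

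The last comparisons asked whether the effect of the vector differed between a knockout and WT. No member passed the edgeR test in ISL1 KO (against 0.00451% of all genes, with 1 member at an unadjusted p under 0.05 and 0 called by DESeq2) or in PAX6 KO (against 0%, with 0 members at that unadjusted p and 0 called by DESeq2). In PDX1 KO 1 member did (against 1.37% of all genes), upward (against 1.19%). This was PITX1, whose vector effect was higher by 3.47 ± 0.65 in PDX1 KO than in WT (adjusted p = 0.0148), and by 1.70 ± 0.28 without the 2 libraries that stood apart (adjusted p = 0.00314). The call was lost without WT BFP replicate 1 and without either WT ISL1 OE library. Without PDX1 KO ISL1 OE replicate 2, where the library labelled replicate 4 is the lone library of its group, 17 members were called in this comparison (against 35.7% of all genes) and 18 in the vector comparison within PDX1 KO (against 46.8%). Without the library labelled replicate 4 they were 1 and 4 (against 0.582% and 3.1%). Leaving out PDX1 KO BFP replicates 1, 2 or 3 left 2, 3 and 2 calls in the latter (against 8.26%, 7.17% and 5.77%).

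Partners of these families were read from lists of other genes, whose counts stand beside 2.05% of all genes higher and 4.48% lower in ISL1 KO, 2.41% and 4.25% in PAX6 KO, and 4.56% and 6.84% in PDX1 KO. Of 10 LIM cofactors, 1 was higher and 3 lower in ISL1 KO BFP than in WT BFP, 1 higher and 2 lower in PAX6 KO BFP, and 2 higher and 3 lower in PDX1 KO BFP, with list medians of 0.32, -0.39 and -0.20. LMO2, a LIM-only protein of blood and endothelium, was lower in all 3, by -4.97 ± 0.48 (adjusted p = 1.1e-05), -4.24 ± 0.46 (adjusted p = 7.1e-05) and -2.52 ± 0.43 (adjusted p = 0.00165), and LMO1 by -1.76 ± 0.50, -3.54 ± 0.53 and -1.68 ± 0.50. The endothelium markers given above moved the same way as LMO2, and their part in it was not tested. Of 7 partner genes of the sine oculis family, DACH2 was the one called against WT, higher in PAX6 KO (2.36 ± 0.37, adjusted p = 0.00158). DACH2 was also higher in PAX6 KO than in PDX1 KO (1.32 ± 0.31) and lower in ISL1 KO than in PAX6 KO (-1.26 ± 0.31), and DACH1 was lower with the ISL1 vector in PDX1 KO (-0.98 ± 0.26, adjusted p = 0.0203). Of 12 further TALE genes, ISL1 KO had 2 above and 1 below WT, PAX6 KO 1 above, and PDX1 KO 2 above and 1 below. IRX5 rose in ISL1 KO (2.84 ± 0.26) and PDX1 KO (1.28 ± 0.24), and IRX3 in ISL1 KO (2.10 ± 0.30, adjusted p = 0.000544). Among 4 tested Groucho corepressors, which many homeodomain proteins recruit, TLE4 was lower in all 3 knockouts, by -1.62 ± 0.25, -1.34 ± 0.25 and -1.86 ± 0.25.

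With all libraries, 25 of the 49 tested members were called in no comparison of 2 groups (against 74% of all genes), namely ISL2, LHX2, LHX3, LHX6, LHX8, LHX9, DLX2, DLX3, DLX4, SIX4, SIX5, POU2F1, POU3F2, POU4F2, OTX1, PBX2, EN1, EN2, TLX1, TLX3, HMX2, HMX3, CUX1, ONECUT2 and CDX2. They include abundant genes such as CDX2 at a mean of 63 TPM and ONECUT2, a factor of liver and endocrine progenitors, at 12.9 TPM, and rare ones such as LHX9 at 0.0347 TPM. When the 2 libraries that stood apart were left out, 20 of 51 were (against 41.9%), and HMX3, a factor of the inner ear and hypothalamus, was then higher in all 3 knockouts and SIX5 higher in ISL1 KO (0.60 ± 0.19, adjusted p = 0.0249). With all libraries no member was called in opposite directions in different knockouts against WT (against 0.0992% of all genes). MEIS1 and MEIS3 were so called without the 2 libraries (against 1.19%), with MEIS1 at -1.13 ± 0.15 in ISL1 KO and 0.61 ± 0.15 in PAX6 KO, and MEIS3 at -0.69 ± 0.19 and 0.59 ± 0.19.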

How the data were processed

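The deposited tables hold expected counts per gene and sequencing lane, estimated by the authors, and TPM values that the authors derived for the same columns. Reads were aligned with STAR to GRCh38, per the submitters' processing notes; which program counted them is not stated in those notes or the labels. Estimated counts of the 4 lanes of a library were summed and rounded to whole numbers, TPM was averaged, and 12 columns that matched no sample were not used. The lowest correlation between lanes of a library was 0.997. Libraries were made with SMART-Seq v4, per the labels' protocols, a kit that does not mark strand.

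Gene names and positions come from GENCODE 29, and 21 members overlap a gene on the other strand. Genes were kept by filterByExpr of edgeR 4.0.16 (R 4.3.3) with a minimum count of 10, which left 22184 genes. One quasi-likelihood model with a term for each of the 8 groups and TMM scaling gave log2 fold changes, SEs and Benjamini-Hochberg adjusted p-values over all genes, with 0.05 as the threshold. CPM values are counts scaled to the library total adjusted by its TMM factor. The factors ran from 0.707, in PDX1 KO ISL1 OE replicate 4, to 1.15, in PAX6 KO ISL1 OE replicate 2. The scripts were tested on simulated data. DESeq2 1.42.0 was an alternative, beside other scalings, no filter, replicate blocks, a lane term, fits on fewer groups and fits without 1 library; fits without the 2 libraries that stood apart and some others were added after seeing the data.

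The members and gene lists were chosen with earlier results of these data known. Every called member is named, with the values of other members where they bear on a result. The labels do not say that libraries of a group came from separate differentiations, so p-values measure only the spread between these libraries. Libraries with the same replicate number in BFP and ISL1 OE deviated together in PAX6 KO (correlations 0.176, 0.382 and 0.346) and ISL1 KO (0.17, 0.099 and 0.307). Each of these values was above those between unlike numbers of the same genotype, narrowly so for 0.099, beside 0.085. The shared numbers in WT (-0.031) and PDX1 KO (-0.222) did not deviate together. The main fit leaves this pairing out, and the replicate blocks take it up. Promoter windows come from the RefSeq table for GRCh38.p14, which matched 46 of the 55 members.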

Additional observations from a re-analysis of the deposited data

Results flagged for a closer look

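The effect of the ISL1 vector on PITX1 was higher in PDX1 KO than in WT by 3.47 on the log2 scale, by a test of the difference itself. Its vector value was 2.87 in PDX1 KO and 0.34 in ISL1 KO, where all libraries with the vector lay above BFP, and -0.60 in WT, where they lay below, while in PAX6 KO the groups overlapped. Of these PITX1 values only that in PDX1 KO passed the test, and the difference between ISL1 KO and WT did not pass the test (0.94 ± 0.61, adjusted p = 1 by edgeR's quasi-likelihood test).

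The vector values of LHX2 were 2.77 ± 1.93 in WT (adjusted p = 1) and -3.59 ± 1.80 in PDX1 KO (adjusted p = 0.18), in opposite directions, with every library with the vector on the same side of BFP within each genotype. Neither passed edgeR's quasi-likelihood test, and LHX2 averaged 0.0275 CPM in WT BFP and 0.0256 CPM in PDX1 KO ISL1 OE, so both values rest on very few counts. PBX4 was at 0.37 ± 0.36 in ISL1 KO (adjusted p = 1) and -0.31 ± 0.39 in PDX1 KO (adjusted p = 0.608) by the same test, likewise without overlap within a genotype. These opposite directions were not tested as differences between those genotypes. Groups of 2 or 3 libraries were not tested for single outlying values.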

How the results depend on the processing

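Of 53 calls on members, 29 were kept in every alternative other than the fits without 1 library, 14 in every fit without 1 library, and 12 in both. The next counts are in the order ISL1 KO, PAX6 KO and PDX1 KO against WT, ISL1 KO against PAX6 KO, ISL1 KO against PDX1 KO, and PAX6 KO against PDX1 KO. The members called were 16, 14, 17, 11, 14 and 7 with an additive replicate block, and 19, 14, 21, 12, 19 and 6 with only the groups of the comparison. Without the 2 libraries that stood apart they were 20, 17, 19, 12, 17 and 7, beside 28.5%, 28.8%, 33.3%, 10.7%, 26.1% and 20.1% of all genes. The main fit called 6.53%, 6.65%, 11.4%, 2.78%, 5.71% and 3.62% of all genes. That share moved between settings, so a larger count of members is not by itself a larger share. Shares under the remaining settings are not given here. DESeq2 called 9 in PAX6 KO against WT, 13 in ISL1 KO against PDX1 KO and 5 in PAX6 KO against PDX1 KO. For the vector, in the order WT and then the 3 knockouts, the counts were 1, 3, 2 and 2 with the additive replicate block and 1, 2, 1 and 16 with DESeq2. They were 2, 5, 0 and 0 with only the groups of the comparison, and 1, 5, 3 and 7 without the 2 libraries. The last counts stand beside 1.69%, 5.92%, 6.02% and 11.2% of all genes. The vector count in ISL1 KO was 0 with library size alone, with no filter, with the lane term and with the nested replicate block, and that in PDX1 KO was 3 with library size alone and with the lane term. The difference of vector effects from WT gave 1 member in ISL1 KO and 0 in PDX1 KO with only the groups of the comparison.

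With 1 library left out, counts ranged from 2 to 7, 1 to 5 and 2 to 8 in the knockouts against WT, from 3 to 5, 4 to 6 and 2 to 2 between knockouts, from 0 to 0, 0 to 0, 0 to 1 and 2 to 18 for the vector in the same order, from 0 to 17 for the difference in PDX1 KO and from 21 to 33 over all groups. The vector value of MSX2 in PDX1 KO reversed to -0.75 with the additive replicate block, -0.50 without PDX1 KO ISL1 OE replicate 4 (3.22 without replicate 2) and -0.51 without the 2 libraries. That of LHX1 reversed to -0.20 in both of the latter, and was 3.16 without replicate 2. The causes of these changes were not tested, apart from the libraries named. Members with few counts, such as OTX2 in WT BFP, are limited by depth.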

Other observations

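Homeobox genes outside the 55 were read from a list of 65, of which 48 were tested. In ISL1 KO BFP 6 were higher and 1 lower than in WT BFP (against 2.05% and 4.48% of all genes), in PAX6 KO BFP 3 higher and 1 lower (against 2.41% and 4.25%), and in PDX1 KO BFP 5 higher and 3 lower (against 4.56% and 6.84%), with list medians of 0.09, 0.04 and -0.04. ZFHX2, a zinc finger homeobox gene, was higher in all 3, by 1.34 ± 0.37, 1.28 ± 0.37 and 1.38 ± 0.37 on the log2 scale. LMX1A, the close relative of LMX1B and a factor of dopamine neurons, was higher in ISL1 KO (1.75 ± 0.47) and PDX1 KO (2.57 ± 0.49), and UNCX in ISL1 KO (3.37 ± 0.82) and PAX6 KO (3.76 ± 0.82). TLX2, a factor of enteric neurons, was lower in PAX6 KO (-3.49 ± 0.75) and PDX1 KO (-2.64 ± 0.72). With the ISL1 vector, EMX1, a cortical factor, was higher in ISL1 KO (1.80 ± 0.33). In PDX1 KO the vector comparison gave 3 higher (CDX1 by 3.77 ± 1.07, TLX2 by 2.42 ± 0.72 and LBX2 by 1.47 ± 0.37) and 3 lower (LMX1A by -2.55 ± 0.49, ZEB2 by -1.47 ± 0.42 and ALX1 by -1.47 ± 0.44), and 2 higher and 3 lower without the 2 libraries that stood apart.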
